A study of Drosophila melanogaster with 32 samples.

Results

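The genes described here are 36 components of the Toll and Imd pathways of Drosophila melanogaster, out of 15251 genes counted. They were chosen by name and by function: recognition proteins, cascade proteases, serpins, the ligand, receptors, adaptors, kinases and NF-kappaB factors, without the antimicrobial peptides that the pathways induce. Of the members, 22 belong to the Toll branch and 14 to the Imd branch. All 36 had an entry in the deposited counts, and 33 passed the filter on low values and were tested.

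RNA was sequenced from 3 cell lines, R1, R4 and R5, in 32 libraries taken at successive passages while the cultures became continuous lines. A passage is one transfer of the cells into fresh medium. The series compares an early stage (passages 2, 3 and 4), an intermediate stage (passages 5 to 11) and a late stage (passages 16, 17 and 19). Early and late held 3 libraries of each line, and intermediate held 5 of R1, 5 of R4 and 3 of R5. R4 at passage 12 belonged to no stage and entered no comparison. Every culture grew in Schneider's medium with fetal bovine serum and antibiotics, and no agent or infection that would activate either pathway is named in the labels. Neither the tissue of origin nor the genotype of any line is stated in the available labels, and each line is 1 culture followed over time.

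In flies, the Toll pathway is triggered outside the cell. Secreted recognition proteins bind bacterial peptidoglycan or fungal glucan and start a cascade of serine proteases, which cleaves the ligand Spatzle so that it binds the receptor Toll; the signal passes through Myd88, Tube and Pelle, removes the inhibitor Cactus and frees the NF-kappaB factors Dorsal and Dif. In the Imd pathway, peptidoglycan binds the surface receptor PGRP-LC or the intracellular receptor PGRP-LE, and the signal passes through Imd, Fadd, the caspase Dredd, the Tak1 and Tab2 kinase complex and the IKK subunit Kenny to the NF-kappaB factor Relish. Fat body and hemocytes, the blood cells of the fly, are the main tissues of these responses.

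Total counts per library ran from 7760446 to 18213927. Levels are in CPM, read counts scaled to library size with trimmed mean of M values. They are not corrected for exon length unless given per kilobase of exon, also where genes are set side by side, sorted or summed. On the first principal component of all tested genes, which held 31.6% of the variance, 8 of the 9 early libraries lay between 21.8 and 53.0, while R4 at passage 4 lay at -1.0, nearer to the intermediate libraries of its line. In bulk RNA, fewer cells of a type and less RNA per cell cannot be told apart.

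From early to late passages 5 of the members fell, and no member was called higher. These were the Imd receptor PGRP-LC, its neighbours PGRP-LA and PGRP-LF, the apical protease of the Toll cascade modSP and the serpin nec. In the edgeR quasi-likelihood test over lines, these 5 of 33 members (15.2%) were called at an adjusted p under 0.05, against 10.5% of the 9177 genes tested, of which 3.98% were higher and 6.56% lower. The share of members called was thus not far above that of all genes. Of all calls 37.7% were higher, or 24.5% with counts scaled to library totals, a setting under which these 5 members and PGRP-SA were called lower. The unadjusted p was under 0.05 for 13 members. The median log2 change was -0.26 over the tested members and 0.03 over all genes. None of the 15 intracellular signalling members was called, where 10.5% of all genes were, and 3 had an unadjusted p under 0.05. DESeq2 called 1, pirk, the fit without R5 called 1, Rel, and passage 4 taken as intermediate gave 2, pirk and Rel. The 5 calls fell among the 18 tested recognition proteins, cascade members, ligand and receptor. These 2 groups were set apart after the values were seen and differ in level, so the split is not a test. The count of members called depended on the lines and on the stage of passage 4. In edgeR fits it was 0 without R1 and 0 without R4, where 10 and 6 members had an unadjusted p under 0.05, and 8 without R5. It was 9 by DESeq2 and 11 when passage 4 was taken as intermediate, all lower. The 10.5% of all genes belongs to the main fit, so none of these counts is set against it.

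**Figure D1:**
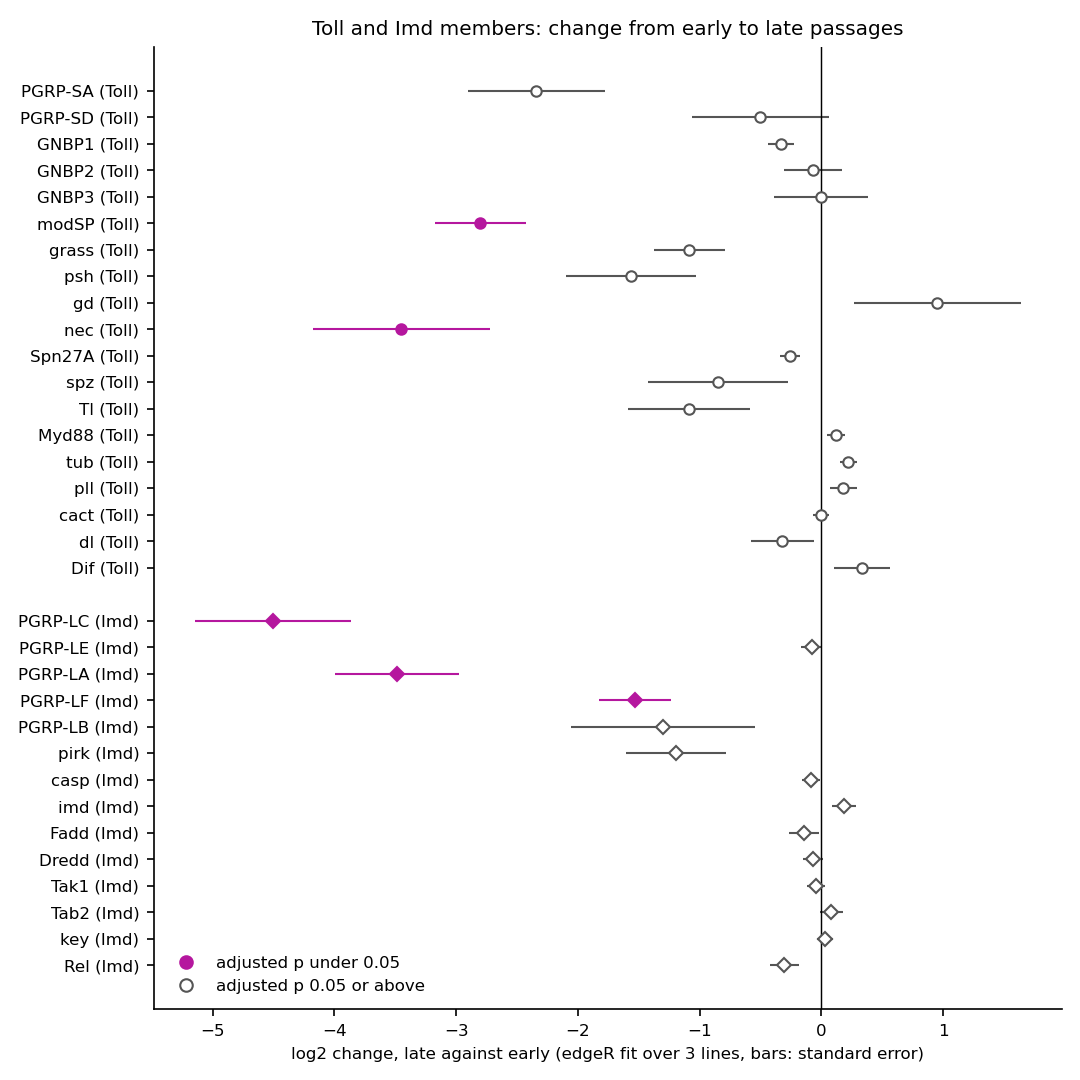
Fitted log2 change from early to late passages for the 33 tested members, Toll members as circles and Imd members as diamonds, with standard errors over 3 lines. The filled symbols are the 5 members with an adjusted p under 0.05, from -4.50 for PGRP-LC to -1.53 for PGRP-LF, while key, cact and GNBP3 lie within 0.03 of 0.

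PGRP-LC, the surface receptor of the Imd pathway for meso-diaminopimelic acid peptidoglycan, had the lowest fitted value of the early to late comparison among the members. At early passages it stood at 26.4, 17.5 and 10.4 CPM in R1, at 32.6, 28.4 and 7.93 CPM in R4 and at 27.5, 18.7 and 14.1 CPM in R5, in order of passage. At late passages it stood at 0.436, 0.155 and 0 CPM in R1, at 1.44, 0.863 and 0.510 CPM in R4 and at 1.68, 3.93 and 1.33 CPM in R5. Every early library lay above every late one, and the lowest early value was R4 at passage 4. The log2 change was -4.50 (SE 0.64, adjusted p = 0.0140), a level 22.7-fold lower, from a mean of 20.4 ± 2.44 CPM to 1.15 ± 1.07 CPM (SD over 3 lines). Most of the decline was present at intermediate passages, where the libraries ran from 0.255 to 2.96 CPM in R1, 2.99 to 4.77 CPM in R4 and 1.48 to 3.88 CPM in R5, and the log2 change from early was -3.03 (SE 0.58, adjusted p = 0.0328). The change within a line was -6.48 for R1, -4.55 for R4 and -3.12 for R5, each past the threshold; it was -7.64 for R1 without passage 16 and -3.73 for R5 without passage 17. The difference of these changes among lines was not past it (adjusted p = 0.0621). The fall over lines was -3.77 without R1 (adjusted p = 0.0747), -4.52 without R4 (adjusted p = 0.181) and -5.39 without R5 (adjusted p = 0.0217). The early to intermediate call was lost without R4 at passage 2 (adjusted p = 0.0548). It was also lost in 4 of 12 fits with another setting or without a whole line (-3.35 to -2.55, adjusted p up to 0.261).

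PGRP-LA and PGRP-LF lie on either side of PGRP-LC on chromosome arm 3L in the gene order of the RefSeq table. PGRP-LA, which encodes a regulator of the Imd pathway, ran from 4.04 to 9.48 CPM (median 5.47) in the 9 early libraries and from 0.167 to 2.36 CPM (median 0.420) in the 9 late ones. Its early and late stages did not overlap, and R5 at passage 17 was the highest late library. By line it ran from 5.30 to 9.48, 4.21 to 8.03 and 4.04 to 6.89 CPM at early in R1, R4 and R5. At intermediate it ran from 0.382 to 1.62, 1.21 to 2.88 and 0 to 3.25 CPM, and at late from 0.167 to 0.310, 0.306 to 0.794 and 0.420 to 2.36 CPM, in the same order. The log2 change was -3.49 (SE 0.51, adjusted p = 0.0154). The change over lines was -4.17 without R5, and its call was lost in the edgeR fits without R1 and without R4 (adjusted p up to 0.181). The change within a line was -4.71 for R1, -3.63 for R4 and -2.29 for R5, each called. In R5 it was -3.58 without passage 17, and the call was lost without passage 2 (adjusted p = 0.0728), 16 (adjusted p = 0.107) or 19 (adjusted p = 0.102). From early to intermediate the change over lines was -2.11 (adjusted p = 0.0451), a call lost in 8 of the 31 fits that each left out 1 library. That call was also lost in 7 of 12 fits with another setting or without a whole line.

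PGRP-LF, a membrane protein that lowers Imd signalling, ran from 0.826 to 11.3 CPM (median 5.48) at early and from 1.19 to 4.49 CPM (median 1.86) at late. The stages overlapped: R4 at passage 4 was below every late library. By line, in the order R1, R4 and R5, it ran from 3.14 to 8.62, 0.826 to 11.3 and 4.47 to 8.81 CPM at early and from 0.243 to 1.48, 1.55 to 2.31 and 1.72 to 4.50 CPM at intermediate. At late it ran from 1.4 to 1.86, 1.19 to 2.09 and 2.88 to 4.49 CPM, R5 lying above the others. Its log2 change was -1.53 (SE 0.30, adjusted p = 0.0321) to late and -1.83 (SE 0.30, adjusted p = 0.0239) to intermediate. The late call was lost without all passage 2 libraries (-0.96, adjusted p = 0.12), without R4 at passage 2 alone (-1.25, adjusted p = 0.0875) and without R5 at passage 2 alone (-1.41, adjusted p = 0.0613). The intermediate call was lost without R4 at passage 2 (-1.52, adjusted p = 0.0683). Of 12 fits with another setting or without a whole line, 4 lost the late call and 4 the intermediate call. In the BDGP6.54 annotation 44.4% of its exon bases lie opposite exons of UGP, the next gene, whose median was 75.0 CPM at early and 78.7 CPM at late and whose log2 change from early to late was 0.15 (adjusted p = 0.432). Without the strand setting of the authors' counting, reads of the 2 genes cannot be told apart there, so the level of PGRP-LF is uncertain.

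Of the other Imd receptor genes, PGRP-LE stayed high. It ran from 58.7 to 78.8 CPM at early and from 53.4 to 79.0 CPM at late, stages that overlap almost fully, with a log2 change of -0.08 (SE 0.09, adjusted p = 0.563). Per kilobase of exon, PGRP-LE stood at 33.6 CPM at early and 31.4 CPM at late, and PGRP-LC at 5.45 and 0.307 CPM.

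**Figure D2:**
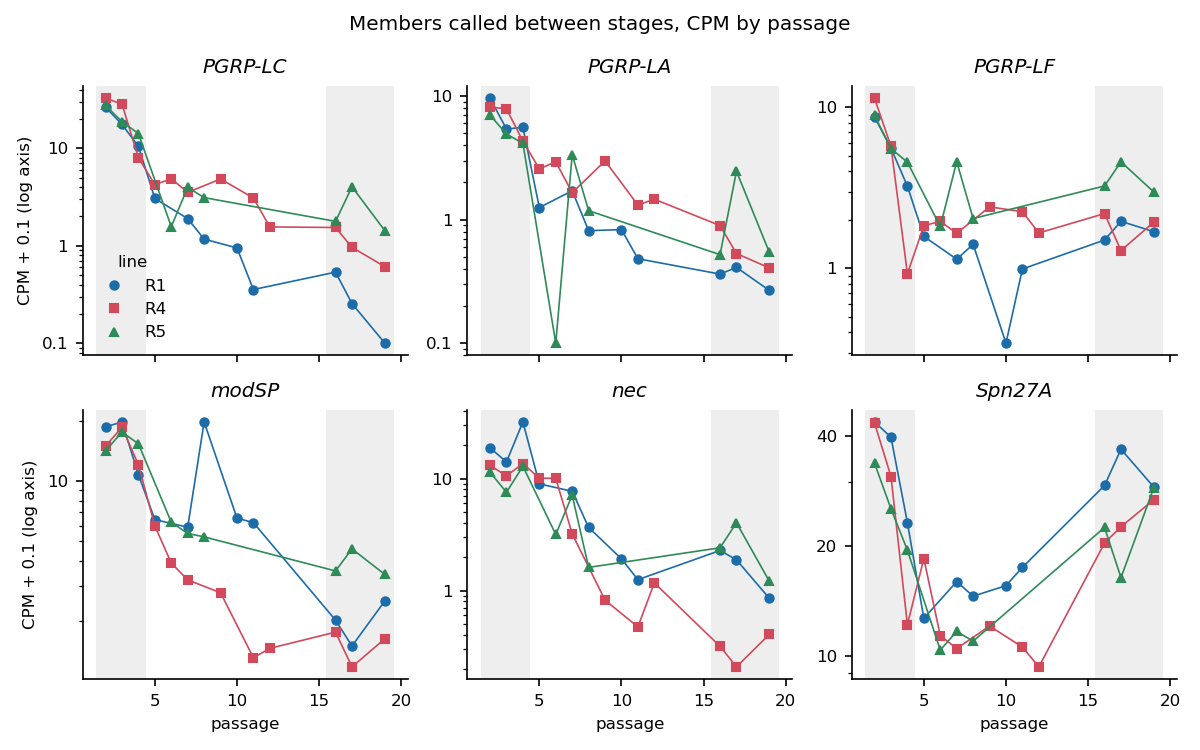
CPM plus 0.1 on a log axis against passage for the 6 members called between stages over lines, in R1 (circles), R4 (squares) and R5 (triangles), with the early and late stages shaded and R4 at passage 12 also drawn. PGRP-LC, PGRP-LA, modSP and nec lie lower at late than at early in all 3 lines, while Spn27A is lowest between those stages.

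Among the proteases upstream of Spatzle, modSP (listed in the files as CG31217), which acts at the top of the cascade after recognition, was the member called. Its early values were 18.6, 19.7 and 10.7 CPM in R1, 14.9, 18.5 and 12.0 CPM in R4 and 14.1, 17.5 and 15.3 CPM in R5. Its late values were 1.92, 1.4 and 2.42 CPM in R1, 1.66, 1.08 and 1.53 CPM in R4 and 3.46, 4.49 and 3.32 CPM in R5. The stages did not overlap, and all late libraries of R5 lay above those of R1 and R4. The log2 change was -2.80 (SE 0.37, adjusted p = 0.0121), 6.97-fold lower, and it was called within R1 (-3.10), R4 (-3.38) and R5 (-2.05). The early to late call over lines was lost in the edgeR fits without R1 and without R4 (adjusted p up to 0.15). From early to intermediate the change over lines was -1.50 (adjusted p = 0.0495), a call lost in 20 of the 31 fits without 1 library. That call was also lost in 8 of 12 fits with another setting or without a whole line. In R1 the intermediate value at passage 8 was 19.7 CPM against 5.79 to 6.44 CPM at the other 4 passages. At that stage R4 ran from 1.21 to 5.88 CPM and R5 from 5.17 to 6.14 CPM.

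The proteases grass, psh and SPE were low. The clip-domain protease grass had a log2 change of -1.09 (SE 0.29, adjusted p = 0.0667), from a mean of 3.00 ± 0.601 CPM to 1.42 ± 0.515 CPM (SD, 3 lines), and was called within R1 (-1.51, adjusted p = 0.00448). The protease psh, or Persephone, which responds to danger signals, stood at 0.356 to 2.81 CPM at early and 0 to 0.673 CPM at late (log2 change -1.57, SE 0.53, adjusted p = 0.110). It was called within R4 (-2.42, adjusted p = 0.0261), a call lost in 4 of the fits without 1 library of R4; without passage 4, the highest early library of that line, it was -1.37 (adjusted p = 0.220). SPE, the Spatzle-processing enzyme of the immune cascade, reached 4.93 CPM in R4 and 4.96 CPM in R5 at passage 2 and at most 0.855 CPM elsewhere, and was not tested. The same 2 libraries held the highest values of PGRP-SD.

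Proteases of the embryonic dorsoventral cascade also act on Spatzle. Of these, gd, which acts before snk and ea, had a log2 change of 0.95 (SE 0.68, adjusted p = 0.383) over lines. Within R1 it had a called rise (1.14, adjusted p = 0.0267) that was lost in 5 of the fits without 1 library of R1. At intermediate passages gd stood at 10.1, 11.1 and 10.9 CPM in R5, against 0.238 to 1.97 CPM in R1 and 1.03 to 1.80 CPM in R4, with no overlap. R5 exceeded R1 there by a log2 difference of 3.64 (SE 0.37, adjusted p = 8.15e-08) and R4 by 2.96 (SE 0.35, adjusted p = 5.81e-07). The later proteases snk and ea were not tested: ea never exceeded 0.713 CPM, and snk had no read in 22 of the 31 libraries and its highest value, 1.88 CPM, in R5 at passage 19.

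The serpin nec, or Necrotic, restrains the protease cascade upstream of Toll. It ran from 7.45 to 32 CPM (median 13.0) at early and from 0.108 to 3.93 CPM (median 1.11) at late, without overlap. The highest early library was R1 at passage 4, and the 3 late libraries of R4, at 0.217, 0.108 and 0.306 CPM, were the lowest of all 31. By line it ran at early from 14.0 to 32 CPM in R1, 10.5 to 13.5 CPM in R4 and 7.45 to 12.8 CPM in R5, and at late from 0.752 to 2.18 CPM in R1 and 1.11 to 3.93 CPM in R5. At intermediate passages it stood at 1.15 to 8.88 CPM in R1, 0.374 to 10.0 CPM in R4 and 1.51 to 7.00 CPM in R5. Its log2 change was -3.45 (SE 0.73, adjusted p = 0.0389), 10.9-fold lower. Within lines it was -3.77 in R1 (adjusted p = 0.00212), -5.79 in R4 (adjusted p = 0.000469) and -2.10 in R5 (adjusted p = 0.0819). The value over lines was -3.37 without R1 (adjusted p = 0.242), -2.86 without R4 (adjusted p = 0.13) and -4.32 without R5 (adjusted p = 0.0417), and the call was also lost without R5 at passage 7 (-3.39, adjusted p = 0.0517).

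Spn27A, a serpin that inhibits the embryonic protease Easter and the melanization cascade, fell and then rose. It ran from 12.1 to 43.6 CPM (median 30.9) at early, from 10.3 to 18.4 CPM (median 12.0) at intermediate and from 16.3 to 36.7 CPM (median 26.7) at late. The intermediate stage overlapped the early one through R4 at passage 4, the lowest early library, and the late one through R5 at passage 17, the lowest late library. In the order R1, R4 and R5 the early ranges were 23.1 to 43.6, 12.1 to 43.3 and 19.4 to 33.6 CPM, the intermediate ones 12.6 to 17.4, 10.4 to 18.4 and 10.3 to 11.6 CPM, and the late ones 28.9 to 36.7, 20.3 to 26.7 and 16.3 to 28.8 CPM. The log2 change from early to intermediate was -1.26 (SE 0.08, adjusted p = 0.00337), and that from intermediate to late was 0.998 (SE 0.08, adjusted p = 0.0294). From early to late it was -0.26 (SE 0.08, adjusted p = 0.0935). In the step to intermediate 5 of 33 members were called, all lower, against 9.69% of all genes (6.02% lower): Spn27A, modSP, PGRP-LC, PGRP-LA and PGRP-LF. In the step from intermediate to late Spn27A was the 1 member called, where 0.0763% of all genes were called. That second call was lost in 9 of the 31 fits without 1 library, with adjusted p up to 0.114, while its size stayed between 0.92 and 1.06. It was also lost in 5 of 12 fits with another setting or without a whole line, with adjusted p up to 0.569 and sizes of 0.85 to 1.07. These were the fits with passage 4 taken as intermediate, with no line block and without any 1 of the lines.

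Of the secreted recognition proteins, PGRP-SA, the receptor for lysine-type peptidoglycan, stood just outside the threshold over lines (log2 change -2.34, SE 0.56, adjusted p = 0.0512). Its partner GNBP1 had a change of -0.33 (SE 0.11, adjusted p = 0.102). GNBP2, of the same family, had one of -0.07 (SE 0.24, adjusted p = 0.865). GNBP3, which binds fungal glucan, ran from 10.4 to 29.2 CPM at early, from 2.29 to 12.6 CPM at intermediate and from 7.03 to 26.6 CPM at late; its change was -1.36 to intermediate (SE 0.40, adjusted p = 0.0789) and 0.00 from early to late (SE 0.39, adjusted p = 0.995). PGRP-SD, another peptidoglycan receptor, had a change of -0.50 (SE 0.56, adjusted p = 0.577), with 9.65 CPM in R4 and 9.39 CPM in R5 at passage 2 and at most 3.33 CPM in the other early libraries.

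By the ratio of highest to lowest level, the intracellular signalling members as a group varied less. Over the 31 libraries the ratio of the highest to the lowest CPM was 1.39 to 6.01 for these 15 genes, with a median of 1.79. Of the 18 other tested members, 9 fell below 1 CPM in at least 1 library, and the remaining 9 had ratios of 1.97 to 38.1, with a median of 7.64. Among the abundant genes of that second group, Tl had a median of 134 CPM and a ratio of 13.7, spz 88.4 CPM and 6.78, and PGRP-LE 65.8 CPM and 1.97. The 2 groups were set apart after the values were seen and differ in level, so their contrast is not a test. The part of counting error in their ratios was not tested. From early to late the log2 changes of the 15 ran from -1.20 (pirk) to 0.33 (Dif), and 14 of them lay within 0.5 of 0, with standard errors of 0.07 to 0.41 over all 15.

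**Figure D3:**
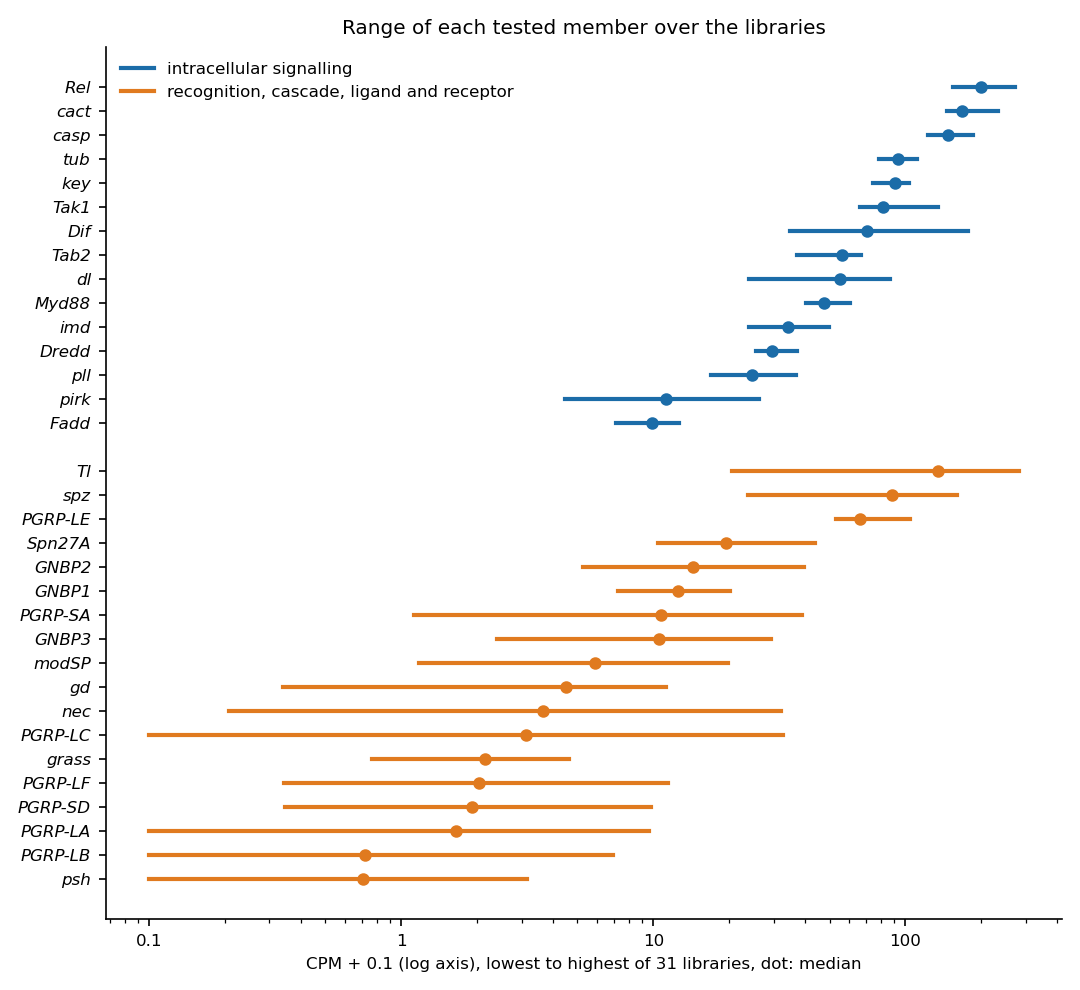
Lowest, median and highest CPM plus 0.1 over 31 libraries on a log axis for each of the 33 tested members, sorted by median within 2 groups. The bars of the 15 intracellular signalling members are short except for pirk, Dif and dl, while those of PGRP-LC, nec and PGRP-SA are long.

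At the receptor, the adaptor Myd88 ran from 40.2 to 60.3 CPM over all 31 libraries, the adaptor tub from 78.8 to 111 CPM and the kinase pll from 16.8 to 36.7 CPM. The change of tub over lines was 0.22 (SE 0.07, adjusted p = 0.10), and it rose by 0.25 within R4 (SE 0.07, adjusted p = 0.00621) and by 0.25 within R5 (SE 0.07, adjusted p = 0.00848). The IkappaB protein cact stood at 170 ± 7.06 CPM at early and 166 ± 1.20 CPM at late (SD, 3 lines), with a log2 change of 0.00 (SE 0.07, adjusted p = 0.980).

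In the Imd branch, the death-domain adaptor imd had a log2 change of 0.18 (SE 0.10) and its partner Fadd (listed as BG4) one of -0.14 (SE 0.12). The caspase Dredd ran from 25.5 to 37.1 CPM over the 31 libraries, with a change of -0.07 (SE 0.08). Tak1, its partner Tab2 and the IKK subunit key had changes of -0.05, 0.08 and 0.03, with SE of 0.08, 0.09 and 0.07. The inhibitor casp had one of -0.08 (SE 0.07). None of these 7 was called over lines or within a line.

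The cytoplasmic inhibitor pirk (listed as CG15678) differed from these, with a log2 change of -1.20 (SE 0.41, adjusted p = 0.110) over lines. It fell in R4, from 21.7, 21.8 and 18.6 CPM to 4.48, 4.74 and 4.59 CPM (log2 change -2.17, SE 0.38, adjusted p = 0.000246), with no overlap. In R1 it stood at 4.85, 12.9, 22.2, 26.2 and 24.1 CPM over the intermediate passages. The highest of all 31 libraries, 26.2 CPM, was thus R1 at passage 10.

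Of the NF-kappaB factors, Rel was the highest per kilobase of exon, at 63.9 CPM at early and 51.4 CPM at late, against 10.2 and 12.0 CPM for Dif and 8.84 and 7.43 CPM for dl. The change of Rel over lines was -0.30 (SE 0.12, adjusted p = 0.140). It was called within R1 (-0.37, adjusted p = 0.0306) and R4 (-0.35, adjusted p = 0.0408), calls lost in 4 fits without 1 library in each line. In R4 the change was -0.18 without passage 2 of that line (adjusted p = 0.327). Dif was highest at intermediate passages: it stood at 34.7 to 93.7 CPM at early, 40.7 to 177 CPM at intermediate and 50.8 to 80.2 CPM at late, overlapping ranges. Its log2 change to intermediate was 0.87 (SE 0.23, adjusted p = 0.0641), and its highest library was R4 at passage 5.

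Within lines the counts of members called from early to late were 12 of 33 in R1, where 27.7% of all genes were called, 13 of 33 in R4, where 30.9% were, and 5 of 33 in R5, where 17.4% were. These tests take successive passages of 1 culture as replicates, so their p-values measure the spread between passages and not between cultures. PGRP-LC, PGRP-LA and modSP were called in each line. The count in R5 was 8 without R4 at passage 4, a library of another line that enters the shared estimate of the spread. The change itself differed among lines for 5 of 33 members (12.8% of all genes): Tl, spz, dl, PGRP-SA and PGRP-LB. The count was 9 of 33 in a fit with passage number as a block, to which the 12.8% does not belong.

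Tl, the receptor Toll, fell in R5. There it went from 107, 209 and 220 CPM at early to 33.4, 32.1 and 20.5 CPM at late, without overlap (log2 change -2.64, SE 0.28, adjusted p = 7.41e-07). In R1 it went from 139, 130 and 243 CPM to 170, 197 and 97.4 CPM (-0.14, SE 0.26, adjusted p = 0.731), and in R4 from 170, 250 and 178 CPM to 120, 113 and 139 CPM (-0.68, SE 0.26, adjusted p = 0.0505). At intermediate passages Tl stood at 218 to 281 CPM in R1, 99.0 to 134 CPM in R4 and 51.1 to 72.8 CPM in R5, without overlap. The difference among lines had an adjusted p of 0.000226 and stayed past the threshold in all 31 fits without 1 library. At late passages R5 was below R1 by a log2 difference of -2.43 (SE 0.28) and below R4 by -2.11 (SE 0.28), and no late library of R5 reached any of R1 or R4.

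Spatzle (spz), the ligand, was highest in R5 at late. It stood there at 106, 153 and 140 CPM in R5, at 64.4, 59.0 and 54.6 CPM in R1 and at 32.8, 31.9 and 32.8 CPM in R4, 3 ranges without overlap. At early the lines overlapped, with 88.4 to 134 CPM in R1, 122 to 145 CPM in R4 and 98.7 to 134 CPM in R5. The log2 change was -0.99 in R1 (SE 0.27, adjusted p = 0.00737), -2.0 in R4 (SE 0.28, adjusted p = 2.37e-05) and 0.26 in R5 (SE 0.26, adjusted p = 0.560), and the difference among lines had an adjusted p of 0.000948, or 0.0937 with passage 4 taken as intermediate. At intermediate passages spz stood at 134 to 160 CPM in R1, after 62.6 CPM at passage 5, at 23.6 to 44.4 CPM in R4 and at 30.0 to 61.6 CPM in R5, and R1 overlapped neither of the others. R4 was below R1 there by a log2 difference of -1.93 (SE 0.21, adjusted p = 1.06e-06).

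The NF-kappaB factor Dorsal (dl) stood at 86.5, 83.1 and 67.5 CPM at late in R5, above every late library of R1 (35.6, 33.4 and 35.4 CPM) and R4 (29.8, 23.8 and 35.0 CPM). Early values overlapped, at 56.0 to 59.4 CPM in R1, 35.8 to 60.0 CPM in R4 and 58.1 to 75.1 CPM in R5. The log2 change was -0.74 in R1 (SE 0.18, adjusted p = 0.00326), -0.71 in R4 (SE 0.18, adjusted p = 0.00477) and 0.30 in R5 (SE 0.18, adjusted p = 0.272). Intermediate values were 42.3 to 70.2 CPM in R1, 26.4 to 39.0 CPM in R4 and 48.0 to 57.1 CPM in R5. The difference among lines had an adjusted p of 0.00788, and 0.0599 without the passage 2 libraries.

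PGRP-LB, an amidase that degrades peptidoglycan and so limits Imd signalling, was at 5.46, 6.84 and 4.10 CPM at late in R5. It was at 0.262, 0.620 and 0.251 CPM in R1 and at 0.433, 0.647 and 0.408 CPM in R4, far below R5 and with no overlap. At intermediate R5 also lay above both, at 2.46 to 4.96 CPM, against 0 to 0.493 CPM in R1 and 0.0726 to 0.504 CPM in R4. At early the lines overlapped, at 0.912 to 2.49 CPM in R1, 0.248 to 3.98 CPM in R4 and 2.19 to 3.44 CPM in R5. R5 exceeded R1 by a log2 difference of 3.80 (SE 0.73, adjusted p = 0.000304) and R4 by 3.45 (SE 0.72, adjusted p = 0.000735). From early to late the log2 change was -2.03 in R1 (adjusted p = 0.0395), -2.10 in R4 (adjusted p = 0.0280) and 0.99 in R5 (adjusted p = 0.296). Without passage 2 of the line it was -1.55 in R1 (adjusted p = 0.185) and -1.27 in R4 (adjusted p = 0.224). The difference of these changes had an adjusted p of 0.0327, which 9 of the 31 fits without 1 library put between 0.0536 and 0.0898 and the fit without passage 2 at 0.155.

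PGRP-SA fell in R1, from 18.4, 23.8 and 31.5 CPM to 2.88, 4.89 and 2.67 CPM (log2 change -2.81, SE 0.45, adjusted p = 6.21e-05), and in R4, from 32, 22.7 and 10.2 CPM to 1.95, 2.48 and 1.02 CPM (-3.57, SE 0.48, adjusted p = 1.84e-05). In R5 it went from 25.3, 18.1 and 38.9 CPM to 10.6, 11.9 and 15.3 CPM (-1.12, SE 0.41, adjusted p = 0.0607). The late libraries of R5 lay above all those of R1 and R4, while at intermediate the lines overlapped, at 8.75 to 16.9 CPM in R1, 2.0 to 9.66 CPM in R4 and 6.79 to 12.9 CPM in R5. The difference of the changes had an adjusted p of 0.0208, lost without R5 at passage 2 (0.0525), R5 at passage 3 (0.0676) or R5 at passage 19 (0.0552), with passage 4 taken as intermediate (0.054) and without all passage 2 libraries (0.0849).

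**Figure D4:**
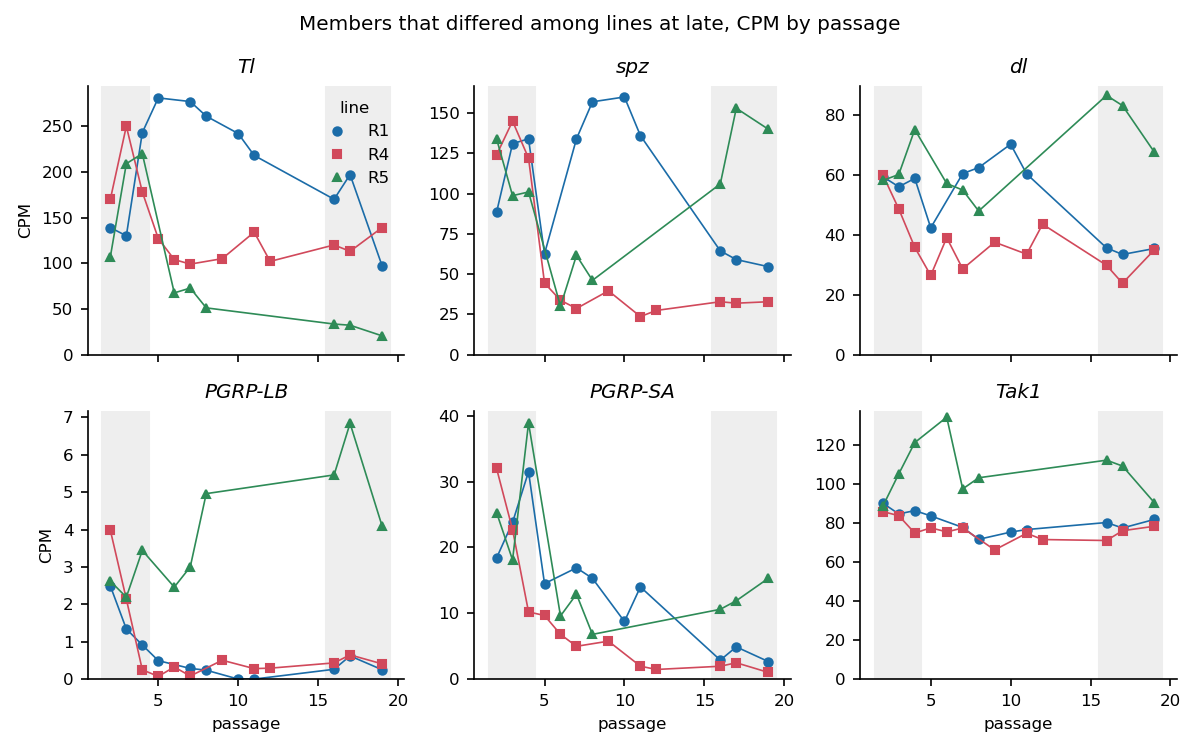
CPM against passage for Tl, spz, dl, PGRP-LB, PGRP-SA and Tak1 in R1 (circles), R4 (squares) and R5 (triangles), with the early and late stages shaded and R4 at passage 12 also drawn. At late, R5 is lowest for Tl, at 20.5 to 33.4 CPM, and highest for the other 5 genes.

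Levels at one stage were also compared among lines. At early 1 of 33 members differed (4.69% of all genes): GNBP1, which was lower in R5 than in R1 by a log2 difference of -0.72 and lost its call in 7 of the 31 fits without 1 library. At intermediate 23 of 33 differed (51.6% of all genes), and at late 14 of 33 did (46.3% of all genes), so the members' shares of 69.7% and 42.4% stood on either side of the background. At late 2 members differed between R4 and R1 (14.7% of all genes), spz and pirk, each lower in R4. There were 10 between R5 and R1 (33.7%) and 14 between R5 and R4 (34.1%).

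Beyond the 5 genes above, Tak1 was higher in R5 at late, at 112, 109 and 90.2 CPM, than in R1, at 80.1, 77.3 and 81.7 CPM, and R4, at 70.9, 75.9 and 78.2 CPM. The ranges of R5 and the other lines did not overlap, and the joint test had an adjusted p of 0.00191. Tak1 stood at 84.5 to 90.0, 74.7 to 85.7 and 88.4 to 122 CPM at early and at 71.5 to 83.5, 66.1 to 77.4 and 97.3 to 134 CPM at intermediate in R1, R4 and R5. GNBP2 was lower in R5, at 7.35, 6.17 and 8.75 CPM, than in R1, at 17.9, 16.8 and 21.5 CPM, and R4, at 19.8, 14.7 and 11.8 CPM (adjusted p = 0.00550). Earlier GNBP2 stood at 12.1 to 15.4, 12.9 to 29.9 and 7.48 to 12.0 CPM (early) and at 9.88 to 14.8, 15.4 to 39.4 and 5.16 to 10.3 CPM (intermediate) in R1, R4 and R5. PGRP-LC, whose late values are given above, was higher in R5 than in R1 by a log2 difference of 3.50 (SE 0.84, adjusted p = 0.00237), on 7 reads in the 3 R1 libraries. GNBP1, pll, pirk, Myd88, PGRP-LE and modSP also passed the joint test, with adjusted p from 0.00641 to 0.0410; of the 31 fits without 1 library, PGRP-LE and modSP each lost it in 8, Myd88 in 2 and pll in 1.

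Other genes of the pathways were counted in the same tests. Among other Toll family receptors, Spatzle family ligands and Toll regulators, 0 of 18 tested were called from early to late over lines by edgeR, against 10.5% of all genes, and 0 by DESeq2, with 2 at an unadjusted p under 0.05 (median log2 change -0.18). Within lines 4 of the 18 were called in R1, 7 in R4 and 2 in R5, against 27.7%, 30.9% and 17.4% of all genes. The change differed among lines for 8 (12.8% of all genes), and the level at late differed for 13 (46.3% of all genes). Among these 8 and 13 were the receptors 18w and Toll-7. Of the 18, pip, spirit and wbl passed the filter on low values only through the early libraries. Among other Imd and JNK branch genes, 2 of 17 were called over lines by edgeR, near the 10.5% of all genes. These were Jra at 0.31 (adjusted p = 0.0404) and scny at 0.37 (adjusted p = 0.0403), both higher. The count was 0 in the fits without R1, without R4 or without R5, where 3, 1 and 4 had an unadjusted p under 0.05. DESeq2 called 4. The level of 10 of the 17 differed among lines at intermediate (51.6% of all genes) and that of 7 at late (46.3% of all genes). Of 19 antimicrobial peptide and other target genes, 11 were tested and 8 of these were called lower. However, 7 of the 8 (AttB, AttC, BomS1, BomS3, DptA, DptB and Mtk) passed the filter only through the early libraries, where they had to be higher, so this count says nothing about the direction of the group. Of the 4 that passed without the early libraries, Drs, AttD, CecC and edin, 1 was called. This was Drs, the peptide Drosomycin, which ran from 9.50 to 104 CPM at early and from 1.11 to 6.06 CPM at late, without overlap (log2 change -3.69, SE 0.49, adjusted p = 0.0122). The count of 8 was 1 without R1, 0 without R4 (8 at an unadjusted p under 0.05) and 1, Drs, without the passage 2 libraries. The summed level of the 19 matched target genes was 14.9 to 222 CPM at early, highest at passage 2, and 3.88 to 12.9 CPM at late. Drs alone gave a mean of 36.1 of 69.2 CPM at early and 2.94 of 8.26 CPM at late, so the sum does not stand for all 19 genes. AttD, CecC and edin had log2 changes of -1.20, -1.38 and 0.25 in the edgeR fit over lines (adjusted p = 0.309, 0.226 and 0.811).

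Fat body and hemocyte markers were measured in the same libraries. Of 10 fat body genes 4 were tested, and Fbp1, Yp3 and fon passed the filter only through the early libraries. The fourth, apolpp, which encodes the precursor of the lipid carrier apolipophorin, reached the filter's level in all 31 libraries and was lower at late (log2 change -3.24, SE 0.44, adjusted p = 0.0126). All 4 were called lower, a count the filter fixes in part, while 2 were called without R1 and 0 without R4, each with all 4 at an unadjusted p under 0.05. The summed level of the 10 fat body genes was 20.6 to 527 CPM at early, 6.62 to 18.7 CPM at intermediate and 7.56 to 24.7 CPM at late. Most of this sum was apolpp, at 18.3 to 434, 5.60 to 17.6 and 7.03 to 23.9 CPM in the same order. Of the 10 genes, 5 had no read in the late libraries of R1, 2 in those of R4 and 2 in those of R5. Except for Fbp1, these genes were low from the start, at no more than 0.932 CPM in any early library. Lsp1beta, at 0 in R1 and R4 at late, had no read in R1 at early either. None of the 11 hemocyte genes was called from early to late over lines by edgeR, and 2 had an unadjusted p under 0.05 (median log2 change -0.46). DESeq2 called 2, NimC1 and PPO2, with edgeR changes of -1.97 (adjusted p = 0.0592) and -4.34 (adjusted p = 0.103). The changes of srp, ush and crq were positive (0.41, 0.38 and 0.47), none called. From early to intermediate edgeR called eater lower (-1.95, adjusted p = 0.0279). The summed level of the 11 genes was 182 to 883 CPM at early and 274 to 850 CPM at late, with no gene at 0 in any group. The gene with the highest mean at both stages was crq, so the sum does not stand for all 11 genes. Within lines the calls went both ways: Pxn, lz and PPO2 were lower in R1, He, PPO2 and NimC1 were lower in R5, and Pxn, gcm and crq were higher in R4. Of 8 muscle genes and 6 muscle precursor genes none was called (1 of each at an unadjusted p under 0.05, and 1 and 0 by DESeq2), of 8 epithelial genes ed and baz were lower, of 7 neuron and glia genes alrm was lower, and of 5 genes of gonad soma tj was lower; without R1 or without R4 the call of tj remained and those of ed, baz and alrm were lost. The part of these cell types in the fall of PGRP-LC, PGRP-LA, PGRP-LF, modSP and nec was not tested.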

How the data were processed

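The authors deposited 1 raw read count per gene and library. Per the submitters' processing notes, TopHat 1.4.1, Bowtie 0.12.8 and bedtools were used with genome build BDGP5 (dm3); neither how reads were counted, nor with which strand option or gene annotation, is stated there. Per the labels' protocols, ribosomal RNA was depleted with a kit made for human, mouse and rat before library construction. Of 15253 entries 2 name no gene (at most 0.0187% of a library's counts) and were left out. Members were matched by gene ID (21) or locus tag (15), and exon lengths, overlaps and arms came from the BDGP6.54 annotation. Because that build differs from the authors', no coordinates are given. Listed genes NT1 and PPO1 matched no entry.

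Genes with a CPM of at least 1 in at least 3 of 31 libraries were tested (9177) with edgeR 4.0.16 (R 4.3.3), quasi-likelihood F test, with Benjamini-Hochberg adjustment over all of them and a threshold of 0.05. Stages were compared over lines on counts summed per line and stage (9 libraries, stage with line as block, 4 residual degrees of freedom), since each line gave libraries to every stage. Lines were compared on 31 libraries in 9 groups (22 residual degrees of freedom), with joint F tests for differences among lines. Nothing says that the lines came from separate animals, so p-values measure the spread between these lines or passages. Passage 4, which the series text places in 2 stages, was taken as early.

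Stage means and SD are over the means of 3 lines. Alternatives covered scaling, filter, DESeq2 1.42.0, passages 2, 4 and 12, the block, and leaving out each library or line. The method was tested on simulated counts with independent libraries and the same spread for every gene. Such counts cannot show how the tests behave on successive passages of the same culture. The members, the gene lists and the alternatives were chosen with earlier results of these data known. All members are named. Values or ranges in every line and stage are given for those called between stages, for the 8 with the smallest adjusted p among lines at late and for the 5 with the smallest for the difference in change; from other lists, genes called from early to late over lines are named. Intracellular members were set apart after their values were seen.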

Additional observations from a re-analysis of the deposited data

Results flagged for a closer look

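In the groups of 5 libraries (R1 and R4 at intermediate), 66 combinations of a tested member and a group were checked. In 6 of them 1 library stood apart from the other 4 by more than 0.710 of the range, Dixon's critical value. Independent draws pass that value in about 1 in 20 cases. Successive passages of a culture are not such draws and the members share the same libraries, so this rate does not apply. In R1 at passage 8 modSP stood at 19.7 CPM, against 5.79 to 6.44 CPM in the others, and cact at 232 CPM, against 174 to 186 CPM. In R1 at passage 5 spz stood at 62.6 CPM, against 134 to 160 CPM. In R4 at passage 5 Spn27A stood at 18.4 CPM, against 10.4 to 12.0 CPM, and psh at 3.05 CPM, against 0.0934 to 0.899 CPM. In R4 at passage 9 Tak1 stood at 66.1 CPM, against 74.6 to 77.4 CPM. R1 at passage 8 and R4 at passage 5 each hold 2 of the 6.

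The change from early to late differed among the 3 lines by the joint edgeR test for Tl (adjusted p = 0.000226), spz (adjusted p = 0.000948), dl (adjusted p = 0.00788), PGRP-SA (adjusted p = 0.0208) and PGRP-LB (adjusted p = 0.0327). For Tl the change in R5 was the lowest of the 3, and for the other 4 genes it was the highest.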

How the results depend on the processing

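Of the members called over lines from early to late (5), DESeq2 gave 9, passage 4 as intermediate 11, and the fits without line R1, R4 and R5 gave 0, 0 and 8. From early to intermediate (5), the counts were 3 with the stricter filter, 12 with DESeq2, 3 with passage 4 as intermediate, 1 without passage 2, 1 with no replicate block (line left out of the model) and 0 without R1 or without R4. From intermediate to late (1) they were 3 with DESeq2 and 0 with passage 4 as intermediate, with no replicate block and without any 1 of the lines. For the difference among lines in the change (5) they were 3 with passage 4 as intermediate, 2 without passage 2 and 9 with the passage block. For lines at early (1) they were 0 without a filter, 2 with DESeq2, 0 with passage 4 as intermediate and 2 with the passage block. Leaving out each library gave 4 to 6, 1 to 5 and 0 to 1 for these steps over lines, 8 to 14, 10 to 14 and 4 to 8 within R1, R4 and R5, 3 to 7 for the difference in change, and 0 to 2, 19 to 24 and 11 to 16 for lines at early, intermediate and late. Every other count stayed within 1.5 times its value, and no member's called change turned its direction in any alternative. The cause of these shifts was not tested, except that fits without a line hold fewer libraries. The shares of all genes given with the main counts do not hold for these alternatives.

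Passage numbers pair no libraries by design. Across genes, deviations from group means of libraries that share a passage number had an r of 0.15 to 0.74 in the early stage and -0.09 to 0.11 in the late one, and the best match in another line had the same passage in 17 of 18 cases at early and 7 of 18 at late. With the passage block 15, 13 and 6 members were called within R1, R4 and R5, and 2, 20 and 16 among lines at early, intermediate and late. The shares of all genes given for these comparisons belong to the fit without that block. Low genes such as PGRP-LB, psh and PGRP-LC rest on few reads at late passages. There were no molecular identifiers.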
